A study of Mus musculus with 10 samples.

Results

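The 10 genes described here are members of the AP-1 and immediate early gene group: the Fos family (Fos, Fosb, Fosl1 and Fosl2), the Jun family (Jun, Junb and Jund), and Egr1, Atf3 and Ier3. They were taken by gene symbol, and all 10 were found among the 24358 symbols of the count tables and all 10 passed the filter on low counts. RNA was sequenced from 10 full-thickness biopsies of dorsal skin of 5 mice on a C57Bl/6 background, killed at 10 or 14 weeks of age, with 1 biopsy from lesional and 1 from uninvolved skin of each mouse. A transgene for the cytokine interleukin-17C, under which psoriasis-like lesions form, is shared by all 5. The genotype label is IL-17C+ for 3 animals (numbers 2237, 2275 and 2296) and IL-17C+KO for the other 2 (numbers 2392 and 2465), where the title of the series names interleukin-6 as the deleted gene. The labels do not name the promoter of the transgene or the age of each mouse, and mice without the transgene are not analysed here, so that uninvolved skin is also transgenic skin and age cannot be told apart from genotype.

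AP-1 is a pair of leucine zipper proteins, in which a Jun protein binds DNA together with a Fos or ATF protein or with another Jun protein. Fos, Fosb, Jun, Junb, Egr1, Atf3 and Ier3 are immediate early genes: growth factors, cytokines, stress and wounding switch them on through MAP kinases within minutes, with no need for new protein, and their messengers decay fast. Fosl1 and Fosl2 usually follow later, and Jund is the most steadily expressed of the family. In the epidermis these factors govern keratinocyte growth, terminal differentiation and inflammatory gene expression, and loss of Junb and Jun from mouse keratinocytes is known to cause psoriasis-like disease.

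The libraries held 21056850 to 31072491 counts. Levels are given as CPM (counts relative to the library total, scaled by the TMM method), and changes as log2 units. Il6, the gene named as deleted, went against the labels: it had 4 to 9 counts in uninvolved and 18 to 69 in lesional libraries labelled IL-17C+, and 55 to 71 and 300 to 315 in those labelled IL-17C+KO. Sums over a gene cannot show which exons were covered, so the genotype names below are those of the labels, and a direction between them holds only if the labels do. Keratinocyte markers (5 genes, Krt5 and Krt14 among them) summed to between 14700 and 33700 CPM, so the labelled tissue was present in all 10. In bulk skin, more or fewer cells of a type and more or less RNA per cell cannot be told apart.

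The promoters of Fos and Jun are shown because this pair was the most alike over the 10 libraries. That of Ier3 is shown because it had the smallest p for lesional against uninvolved skin. Atf3 serves as an example of the members that differed in direction between mice, which are all but Fos, Junb and Ier3. The RefSeq promoter table matched 8 of the 10 members. Each run is the 250 bases before the RefSeq start of the gene (GRCm38.p6), 5′ to 3′ on the strand of the gene. Capitals mark 4 motifs, each searched on both strands and with no overlap between matches. The letters TGACGT are the core of the CRE, the site bound by ATF and CREB proteins. The Jun-type form of the AP-1 site is spelled TGACATCA. The TATA box is spelled TATAAA, and the kappaB-like sequence is spelled GGAATTTCC.
Fos (chr12:85473640-85473889, plus strand): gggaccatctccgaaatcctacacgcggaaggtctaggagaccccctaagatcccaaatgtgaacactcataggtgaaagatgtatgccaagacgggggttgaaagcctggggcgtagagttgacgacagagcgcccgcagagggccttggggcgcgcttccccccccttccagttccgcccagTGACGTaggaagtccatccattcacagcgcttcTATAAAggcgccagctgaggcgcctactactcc
Jun (chr4:95052223-95052472, minus strand): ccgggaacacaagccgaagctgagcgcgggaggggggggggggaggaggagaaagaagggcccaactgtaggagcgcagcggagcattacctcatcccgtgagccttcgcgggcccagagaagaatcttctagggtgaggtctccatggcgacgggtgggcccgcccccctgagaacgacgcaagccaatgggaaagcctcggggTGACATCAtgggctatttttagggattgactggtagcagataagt
Atf3 (chr1:191183334-191183583, minus strand): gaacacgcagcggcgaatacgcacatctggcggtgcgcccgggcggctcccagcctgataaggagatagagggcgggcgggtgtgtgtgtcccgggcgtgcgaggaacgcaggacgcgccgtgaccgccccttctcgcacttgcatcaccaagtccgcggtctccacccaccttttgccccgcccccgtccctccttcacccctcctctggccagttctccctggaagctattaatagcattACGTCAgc
Ier3 (chr17:35821463-35821712, plus strand): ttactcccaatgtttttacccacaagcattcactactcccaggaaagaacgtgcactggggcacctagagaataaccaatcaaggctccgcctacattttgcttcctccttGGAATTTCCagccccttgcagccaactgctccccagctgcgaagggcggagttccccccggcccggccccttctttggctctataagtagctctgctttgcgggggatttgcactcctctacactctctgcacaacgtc

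The CRE core lay 66 to 61 bases before the start of Fos and 8 to 3 bases before that of Atf3, where it is read as ACGTCA, and 6.47% of all 32851 promoter windows of the same length held it. The Jun-type site lay 45 to 38 bases before the start of Jun, and 2.93% of windows held it. The TATA box of Fos (12.4% of windows) began 33 bases before the start, and the kappaB-like sequence of Ier3 (0.286% of windows) began 139 bases before it. The AP-1 site TGANTCA (6.75% of windows) and the CArG box bound by serum response factor (1.47% of windows) had no match in the 8 member windows searched, which says only that these letters are not within these bases. The windows of Atf3 and Fosl2 lie inside the gene spans given below, and that of Jund ends at base 70697738, before the span of Jund. The windows of Ier3 and Fosb reach partly into the spans of their genes, and that of Junb begins at base 84978749, apart from its span. For all of these genes the windows do not adjoin the outermost annotated start, while those of Fos and Jun do. The distances given above are from the RefSeq start. A match is a description of the letters and not evidence of binding. The motifs were chosen after the sequences were seen, so the shares of windows do not measure how unusual a match is.

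Jun (GRCm38 chromosome 4, 95049034 to 95052222), Junb (chromosome 8, 84974484 to 84978718) and Jund (chromosome 8, 70698949 to 70700616) are annotated with 1 exon each. Fos (chromosome 12, 85473890 to 85477273), Fosb (chromosome 7, 19302696 to 19310051), Fosl1 (chromosome 19, 5447547 to 5455946), Fosl2 (chromosome 5, 32135801 to 32157842) and Atf3 (chromosome 1, 191170296 to 191218039) have 4 exons in their longest coding transcript, Egr1 has 3 and Ier3 (chromosome 17, 35821684 to 35822923) has 2. Some of these loci overlap a gene on the opposite strand, and whether counting used the strand is not stated, so reads of both partners cannot be told apart. Prdx2, which overlaps Junb, had 5680 to 20026 counts, and Ccdc85b, which overlaps Fosl1, had 433 to 660 counts against 8 to 299 for Fosl1 itself. Jun, Jund and Atf3 overlap the annotated genes Junos, Gm11175 and Gm24748. Values of these 5 members may therefore hold reads of the partner gene or lack reads that fall on both genes, and which of these applies is not known.

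**Figure D1:**
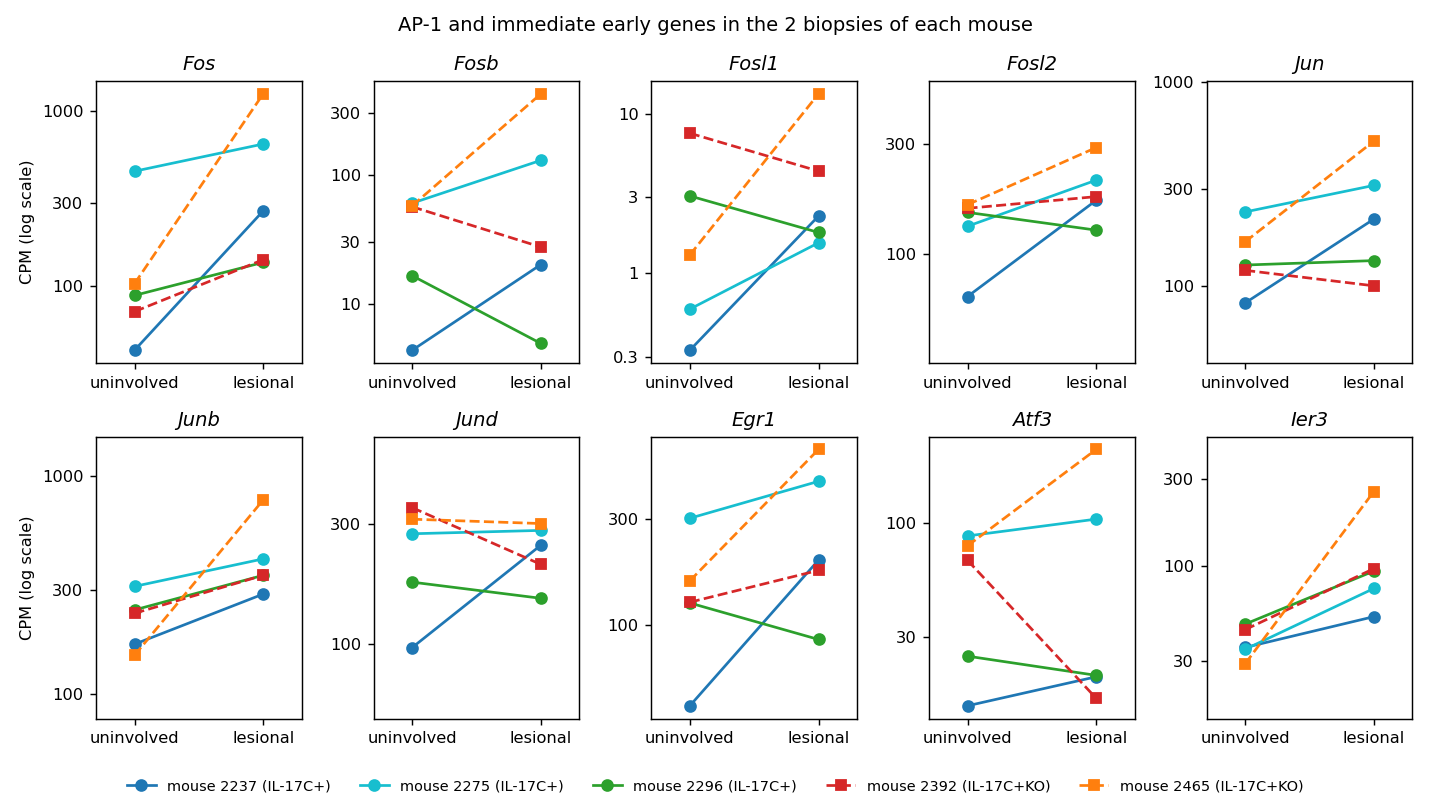
CPM (log axis) of each of the 10 genes in the uninvolved and the lesional biopsy of each mouse, joined by a line (circles and solid lines, IL-17C+; squares and broken lines, IL-17C+KO). The lines of Fos, Junb and Ier3 go up in 5 of 5 mice, while those of Fosb, Fosl1 and Atf3 go down in 2 mice and those of Jund in 3.

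The comparison of lesional with uninvolved skin of the same mice asked which of these genes differ within a mouse. Fos, Junb and Ier3 were higher in the lesional biopsy of 5 of 5 mice, and Fosl2, Jun and Egr1 of 4 of 5. Fosb, Fosl1 and Atf3 were higher in 3 and Jund in 2. Over all 16083 genes tested, 9.13% were higher in all 5 mice and 29.6% in at least 4, against 3 and 6 of the 10 members. No member passed an adjusted p of 0.05 in edgeR's quasi-likelihood test with the mouse as a block, in either label or in the mean of both. Of all genes, 0% passed in IL-17C+ mice (1031 had an unadjusted p under 0.05; DESeq2 called 247), 0.0124% in mice labelled IL-17C+KO and 0.131% for the mean of both (16 higher and 5 lower). Unadjusted p-values under 0.05 for that mean belonged to Fos, Junb and Ier3, all higher, where 9.18% of all genes were higher and 10.5% lower, and in mice labelled IL-17C+KO they belonged to the same 3 members (6.16% of all genes were higher). The median log2 change of the members was 0.61 in IL-17C+ mice, 1.07 in mice labelled IL-17C+KO and 0.87 for the mean of both, against -0.02, 0.00 and 0.00 over all genes tested. Each of these medians rested on single mice. Without mouse 2465 it was 0.28 for the mean of both labels and -0.04 in mice labelled IL-17C+KO (5 of 10 members positive), and without mouse 2392 it was 1.40 and 2.16. Without mouse 2237 it was 0.54 for the mean of both labels and 0.22 in IL-17C+ mice, where it was 0.97 without mouse 2296.

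Ier3, a stress-induced gene that is a known target of NF-kB and of MAP kinases and affects cell survival, was the member with the smallest p. In uninvolved skin it stood at 35.4, 34.6 and 47.6 CPM in IL-17C+ mice 2237, 2275 and 2296, and at 44.4 and 28.8 CPM in IL-17C+KO mice 2392 and 2465. In lesional skin it stood at 52.4, 74.9 and 93.4 CPM in the same IL-17C+ mice and at 96.3 and 256 CPM in the IL-17C+KO mice. All 5 lesional libraries were above all 5 uninvolved ones, which held for no other member and for 2.98% of all genes. The lesional biopsy was 1.48 to 2.17 times the uninvolved one in 4 mice and 8.87 times in mouse 2465. The fitted change was 1.51 ± 0.33 log2 units for the mean of both labels (SE, 5 mice; edgeR adjusted p = 0.0927), 0.88 ± 0.40 in IL-17C+ mice (adjusted p = 0.789) and 2.13 ± 0.52 in IL-17C+KO mice (adjusted p = 0.227).

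Junb is a Jun protein that can restrain Jun and that limits cytokine output of keratinocytes. Its highest library was 5.17 times its lowest, against 29.3 times for Fos and 3.61 times for Jund. Uninvolved skin held 169, 312 and 243 CPM in mice 2237, 2275 and 2296, and 235 and 151 CPM in mice 2392 and 2465. Lesional skin held 288, 417 and 351 CPM in the IL-17C+ mice and 351 and 779 CPM in the IL-17C+KO mice. Only the uninvolved library of mouse 2275 reached into the lesional range. The ratio within a mouse was 1.34 to 1.70 in 4 mice and 5.17 in mouse 2465. The fitted change was 1.02 ± 0.30 log2 units for the mean of both labels (adjusted p = 0.147 in edgeR's quasi-likelihood test).

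Fos, the founding partner of Jun in AP-1, had a far wider spread. Uninvolved skin held 42.9, 453 and 88.3 CPM in mice 2237, 2275 and 2296, and 71.3 and 103 CPM in mice 2392 and 2465. Lesional skin held 269, 648 and 136 CPM in the IL-17C+ mice and 141 and 1255 CPM in the IL-17C+KO mice. The groups overlapped, since uninvolved skin of mouse 2275 exceeded the lesional skin of 3 other mice. The ratio within a mouse ran from 1.43 (mouse 2275) to 12.2 (mouse 2465), and the fitted change was 1.77 ± 0.53 log2 units for the mean of both labels (edgeR adjusted p = 0.147).

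**Figure D2:**
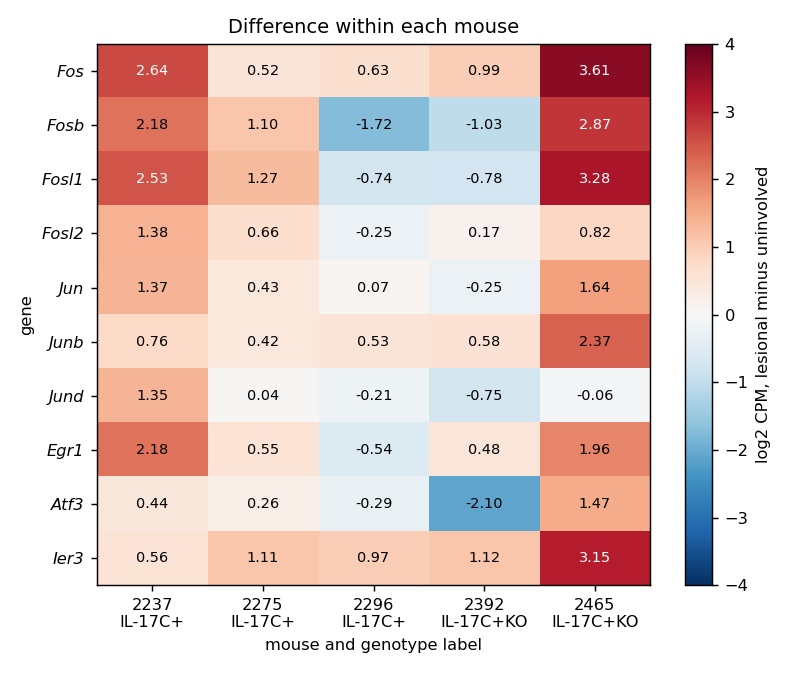
Difference of log2 CPM, lesional minus uninvolved, for each of the 10 genes (rows) in each mouse (columns), with red for higher and blue for lower in lesional skin. Mice 2237, 2275 and 2465 have positive values for 10, 10 and 9 genes, and mice 2296 and 2392 for 4 and 5.

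DESeq2, another count test, called these 3 genes for the mean of both labels (adjusted p = 0.000261 for Ier3, 0.0119 for Junb and 0.00238 for Fos), in a table where it called 12.6% of all genes. It called the same 3 in the IL-17C+KO mice (adjusted p = 0.00201, 0.0345 and 0.0241; 7.19% of all genes) and no member in the IL-17C+ mice (1.54% of all genes). Without the mouse block edgeR called Ier3 alone among the members (adjusted p = 0.03), with 6.01% of all genes called. Whether these 3 members passed therefore depended on the test.

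Egr1, a zinc finger factor induced with Fos, stood at 43.1, 301 and 125 CPM in uninvolved skin of mice 2237, 2275 and 2296 and at 126 and 157 CPM in that of mice 2392 and 2465. In lesional skin it stood at 195, 441 and 85.7 CPM and at 175 and 614 CPM. It was lower in the lesional biopsy of mouse 2296 alone, and the groups overlapped. Its fitted change was 0.97 ± 0.45 log2 units for the mean of both labels (edgeR adjusted p = 0.296).

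Jun, the defining AP-1 subunit, ranged from 82.7 to 231 CPM in uninvolved skin (median 127) and from 100.4 to 515 CPM in lesional skin (median 213). Within a mouse its log2 CPM differed by 1.37 (mouse 2237), 0.43 (mouse 2275), 0.07 (mouse 2296), -0.25 (mouse 2392) and 1.64 (mouse 2465). Fosl2, which encodes Fra-2, ranged from 65.5 to 163 CPM in uninvolved (median 151) and from 127 to 288 CPM in lesional skin (median 177). Fosl2 was lower in the lesional biopsy of mouse 2296 only, by a difference of -0.25. The fitted changes of Jun and Fosl2 for the mean of both labels were 0.66 ± 0.35 and 0.55 ± 0.28 log2 units (edgeR adjusted p = 0.364 and 0.35).

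Fosb, a Fos protein with a fast and brief response, differed in direction between mice. It was 4.42, 60.4 and 16.6 CPM in uninvolved skin of mice 2237, 2275 and 2296, and 56.6 and 57.6 CPM in that of mice 2392 and 2465. Lesional skin held 20.3, 129 and 4.98 CPM in the IL-17C+ mice and 27.7 and 422 CPM in the IL-17C+KO mice. Mice 2296 and 2392 had less Fosb in the lesional biopsy (ratios 0.303 and 0.49), and the other three had 2.14 to 7.31 times as much.

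Fosl1, which encodes Fra-1 and is known from the migrating wound edge, was the scarcest member, with 8 to 299 counts per library. Uninvolved skin held 0.33, 0.598 and 3.06 CPM in mice 2237, 2275 and 2296, and 7.555 and 1.305 CPM in mice 2392 and 2465. Lesional skin held 2.29, 1.555 and 1.805 CPM in the IL-17C+ mice and 4.375 and 13.3 CPM in the IL-17C+KO mice. Like Fosb, it was lower in the lesional biopsy of mice 2296 and 2392 and higher in the other three. Fitted changes for the mean of both labels were 0.76 ± 0.85 log2 units for Fosb and 1.15 ± 0.83 for Fosl1 (edgeR adjusted p = 0.68 and 0.502). Within single mice the log2 difference ran from -1.72 to 2.87 for Fosb and from -0.78 to 3.28 for Fosl1, a wider span than either change.

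Atf3, a stress-induced factor that pairs with Jun and often represses, stood at 14.5, 87.6 and 24.6 CPM in uninvolved skin of mice 2237, 2275 and 2296 and at 67.7 and 78.9 CPM in that of mice 2392 and 2465. Lesional skin held 19.8, 105 and 20.1 CPM in the IL-17C+ mice, and 15.7 and 219 CPM in the IL-17C+KO mice. The IL-17C+KO mice moved in opposite directions, with a log2 difference of -2.10 in mouse 2392 and 1.47 in mouse 2465. Jund ranged from 96.7 to 349 CPM in uninvolved skin (median 275) and from 152 to 302 CPM in lesional skin (median 247). The fitted changes of Atf3 and Jund for the mean of both labels were -0.09 ± 0.53 and -0.01 ± 0.29 log2 units (edgeR adjusted p = 0.95 and 0.991), and the sign of each turned under other scalings or units, with Jund at 0.01 under RLE size factors and Atf3 at 0.07 on the log2(FPKM + 1) scale.

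**Figure D3:**
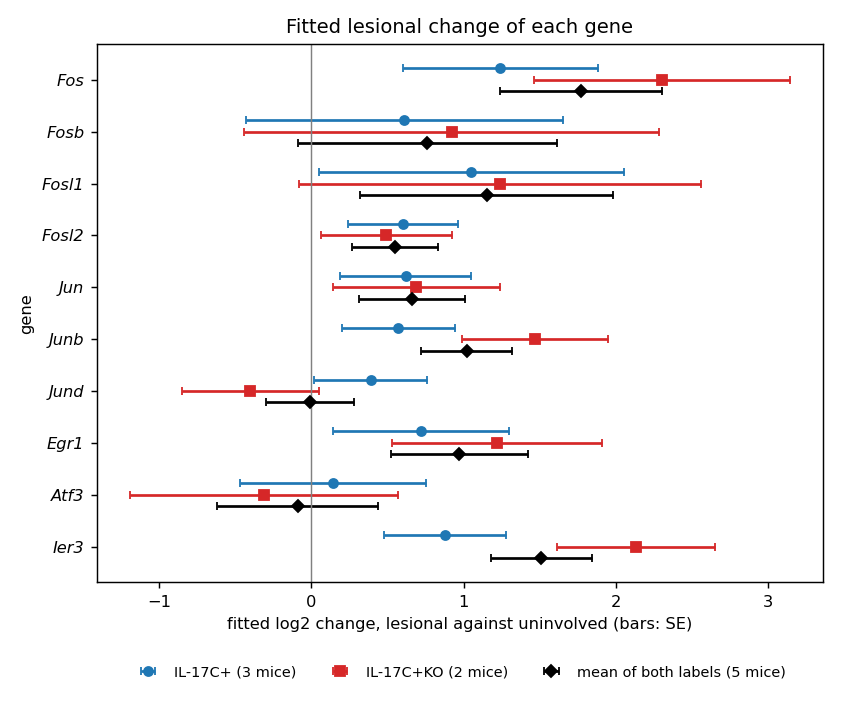
Fitted log2 change of each gene, lesional against uninvolved skin, in IL-17C+ mice (circles), in IL-17C+KO mice (squares) and for the mean of both labels (diamonds), with bars of 1 SE. For the mean of both labels Ier3, Fos and Junb lie farthest from 0 in relation to their bars, and the bars of Fosb, Atf3 and Jund cross 0.

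The lesional difference varied widely between mice across most of the members. In mouse 2465, 8 of the 10 members were higher in lesional skin by more than 1 log2 unit and 0 were lower by as much (14.1% and 16.7% of all genes), with a median of 2.17. In mouse 2237, 7 were higher by more than 1 and 0 lower (13% and 10.3% of all genes), with a median of 1.37. In mouse 2275, 3 were higher by more than 1 and 0 lower (11.2% and 10.9% of all genes), with a median of 0.53. Mouse 2392 had 1 member higher by more than 1 and 2 lower (8.5% and 7.11% of all genes), with a median of -0.04. Mouse 2296 had 0 higher and 1 lower (7.65% and 8.34% of all genes), with a median of -0.23. Lesional skin of mouse 2465 was the highest of the 10 libraries for 9 members (14.1% of all genes), and uninvolved skin of mouse 2237 was the lowest for 8 members (21.7% of all genes).

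Marker levels of other cell types also differed between these libraries. Fibroblast markers (5 genes) summed to 17310 CPM in lesional skin of mouse 2465, and to 1809 to 7433 CPM in the other 9 libraries. Skeletal muscle markers (6 genes) summed to 449 CPM there, and to 1944 to 31970 CPM elsewhere. Adipocyte markers (5 genes) were also lowest there, at 412 CPM against 1074 to 3397 CPM elsewhere. So were T cell markers (4 genes), at 3.52 CPM against 5.93 to 23.2 CPM. Mast cell markers (5 genes) were higher in the lesional biopsy of each mouse, with 156 to 254 CPM in uninvolved and 235 to 772 CPM in lesional skin. Anagen hair follicle markers (5 genes) summed to 8326 CPM in uninvolved skin of mouse 2237, the highest of the 10. They summed to 5407 and 5056 CPM in lesional skin of mice 2275 and 2237. Both biopsies of mouse 2296 and lesional skin of mouse 2465 held 803 to 1506 CPM. Both biopsies of mouse 2392 and uninvolved skin of mice 2275 and 2465 held 10.1 to 24.2 CPM. Endothelium markers (4 genes) summed to 60.95 CPM in uninvolved skin of mouse 2237, the lowest of the 10, against 135 to 350 CPM elsewhere. Neutrophil markers (7 genes) summed to 327 and 281 CPM in lesional skin of mice 2465 and 2392. Lesional skin of mice 2296, 2275 and 2237 held 456, 65.9 and 34.4 CPM. Members higher in the lesional biopsy of these mice, in the same order, numbered 9, 5, 4, 10 and 10. Heat shock genes (10 genes), which respond to handling of tissue, summed to 3407 to 4638 CPM, with 3776 CPM in lesional skin of mouse 2465. Such a sum is carried by its most abundant genes, so a change of a scarcer one could go unseen. No gene of these lists was at 0 except 1 hair follicle gene in lesional skin of mouse 2392. The part of these cells and genes in the members' levels was not tested.

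The lesional changes under both labels were then set against each other within the same fit. No member passed (edgeR adjusted p = 1 for each), and neither did any other gene (0% of all genes). An unadjusted p under 0.05 was reached by 188 genes, none of them a member, and DESeq2 called 6 genes. The largest differences among members were 1.25 ± 0.64 log2 units for Ier3, 1.06 ± 1.04 for Fos and 0.90 ± 0.60 for Junb, each larger under the label IL-17C+KO, and -0.79 ± 0.59 for Jund. Without mouse 2465 these differences were 0.23 log2 units for Ier3, -0.25 for Fos, 0.01 for Junb and -1.14 for Jund, so that those of Ier3, Fos and Junb rested on that mouse.

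In lesional skin the libraries labelled IL-17C+KO were compared with those labelled IL-17C+, 2 against 3. Both IL-17C+KO libraries were above all 3 IL-17C+ libraries for Fosl1 and for Ier3, and 11.7% of all genes had such an order. Lesional Fosl1 averaged 8.85 ± 6.33 CPM (SD, n = 2) under the label IL-17C+KO and 1.88 ± 0.372 CPM (SD, n = 3) under IL-17C+, a fitted difference of 2.26 ± 0.52 log2 units (edgeR adjusted p = 0.565). For lesional Ier3 the means were 176 ± 113 CPM (SD, n = 2) against 73.5 ± 20.5 CPM (SD, n = 3), a difference of 1.29 ± 0.46 (edgeR adjusted p = 0.63). All 10 members had a positive fitted difference, with a median of 0.88 against 0.01 over all 15691 genes, and none passed (0% of all genes; 1145 had an unadjusted p under 0.05). Without mouse 2465, 3 of 10 were positive and the median was -0.30, so this pattern too rested on that mouse, and the differences of Fosl1 and Ier3 were then 1.21 and 0.39. Endothelium markers (4 genes, none at 0) summed to 309 to 350 CPM under IL-17C+KO and 135 to 218 CPM under IL-17C+ in lesional skin. The difference was positive for 4 of 4, with a median of 1.06 log2 units. Uninvolved skin had the same order (286 to 324 against 61 to 234 CPM, median 1.07). Fibroblast, macrophage, neutrophil and adipocyte markers also had positive medians in lesional skin (1.04, 0.74, 0.74 and 0.74). Keratinocyte, mast cell, T cell, skeletal muscle and anagen hair follicle markers had negative ones (-0.22, -0.43, -0.70, -0.91 and -2.26). The part of these markers in the members' difference was not tested. DESeq2 called Fosl1 (adjusted p = 0.0131) and no other member, with 1.36% of all genes called. Fosl1 also had a positive difference in uninvolved skin, 1.77 ± 1.06 log2 units (edgeR adjusted p = 0.849), which was -0.00 without mouse 2392. Its lesional change differed between the labels by 0.19 ± 1.70 log2 units. The difference of Fosl1 was thus not shown to be particular to lesional skin.

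In uninvolved skin 5 members had a positive and 5 a negative fitted difference between the labels, with a median of 0.22 against -0.01 over all 15568 genes, and none passed (0% of all genes; 581 had an unadjusted p under 0.05 and DESeq2 called 11). Both IL-17C+KO libraries were above all 3 IL-17C+ libraries for Fosl2 and Jund (10.4% of all genes). Uninvolved Jund averaged 332 ± 24.8 CPM (SD, n = 2) under the label IL-17C+KO and 183 ± 89.2 CPM (SD, n = 3) under IL-17C+, a fitted difference of 0.87 ± 0.46 log2 units (edgeR adjusted p = 0.849). Without mouse 2275, whose uninvolved skin was high for Fos, Egr1 and Atf3, edgeR called 241 genes (1.57% of all genes) and among them Atf3, with a difference of 1.92 ± 0.41 (adjusted p = 0.04). With all 5 mice the difference of Atf3 was 0.81 ± 0.70 (edgeR adjusted p = 0.849).

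Levels were compared between genes on the deposited FPKM scale, which divides by transcript length. Junb led with a median of 164 FPKM over the 10 libraries (75.9 to 437), followed by Jund with 87.5 (30.0 to 105) and Fos with 64.5 (18.8 to 610). Ier3 and Egr1 had medians of 50.7 and 50.5 FPKM and Jun 41.7. Fosl2 (23.3 FPKM), Atf3 (21.2) and Fosb (9.89) were lower, and Fosl1 was lowest with 1.36 FPKM (0.182 to 9.67). The ranges of every pair of neighbours in this order overlapped. The highest library was 95.5 times the lowest for Fosb and 29.3 times for Fos on the CPM scale, but 3.61 times for Jund and 4.4 times for Fosl2.

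**Figure D4:**
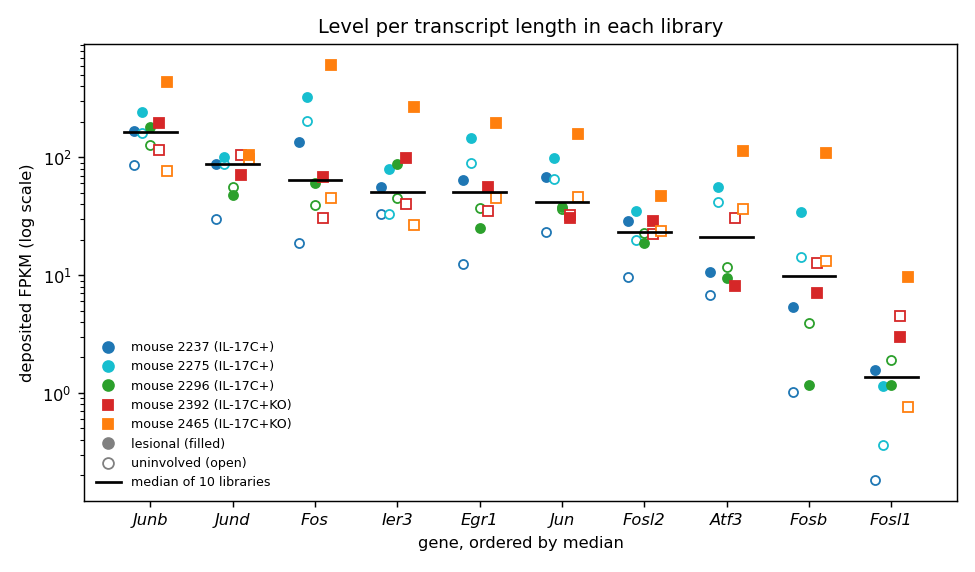
Deposited FPKM (log axis) of each gene in the 10 libraries, ordered by the median (black line), with filled symbols for lesional and open symbols for uninvolved skin. Junb has the highest median and Fosl1 the lowest, and the points of Jund span the narrowest range.

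Many of the members varied together over the 10 libraries. Pearson's r of log2 CPM was 0.95 between Fos and Jun, 0.93 between Fos and Egr1, and 0.91 between Jun and Egr1. Fosb was close to Egr1 and to Atf3 (0.91 each), and Junb to Ier3 (0.91). High values also joined Fosl2 to Egr1 (0.87), Fos to Junb (0.84) and Fosb to Jund (0.83), so no separate sets are claimed. Ier3 and Jund had the lowest value, 0.11, and Fosl1 had 0.32 with Fos and 0.77 with Fosl2. The 10 libraries share mice and differ in depth and in cell content, so these values are descriptions with no test.

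**Figure D5:**
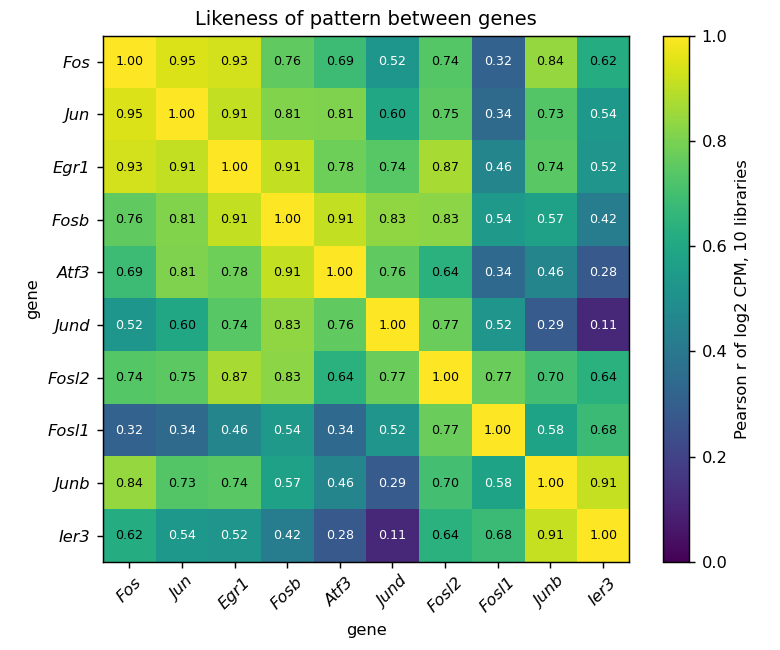
Pearson's r of log2 CPM over the 10 libraries between each pair of genes, from dark (0) to bright (1). Fos, Jun and Egr1 have values of 0.91 to 0.95 with each other, and Junb and Ier3 have 0.91. Fos and Junb are also close, with 0.84.

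Among tested genes outside the group, those most like Fos over the 10 libraries were Tmem26 (r = 0.920), Enpp1 (0.916), Mex3b (0.916), Lrrn2 (0.911) and Smc5 (0.909). Genes much like Fosl1 were Vps37b (0.963), Rnf224 (0.956), Ddx5 (0.940) and Capn2 (0.938). Those most like Junb were Runx3 (0.957), Smc5 (0.952), Ier2 (0.938), Doc2a (0.937) and Hhipl1 (0.927). Ier2, an immediate early gene itself, ranged from 96.6 to 276 CPM, and Runx3, a lymphocyte and epithelial transcription factor, from 2.42 to 14.6 CPM. The highest values among 16083 genes over 10 libraries are high by selection, and they were not tested.

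Other leucine zipper factors and immediate early genes gave small medians for the mean lesional change of both labels. Of 23 zipper partners, 0 passed in edgeR (4 higher and 1 lower at an unadjusted p under 0.05), with a median of 0.17 log2 units, and DESeq2 called 2 higher and 0 lower. Nfe2l2, the oxidative stress factor Nrf2, had 0.67 ± 0.21, Jdp2, an AP-1 repressor, 0.68 ± 0.22, and Mafa -1.32 ± 0.43 (edgeR adjusted p = 0.161 to 0.174), and DESeq2 called Nfe2l2 (adjusted p = 0.0408). Of 27 tested immediate early genes outside the group, 0 passed in edgeR (4 higher and 1 lower at an unadjusted p under 0.05), with a median of 0.20. Ier5l had a change of 0.98 ± 0.26, Cyr61, a matricellular protein, 0.88 ± 0.26, Zfp36, which destabilises cytokine messengers, 1.05 ± 0.37, and Ctgf, the close relative of Cyr61, -0.79 ± 0.22 (edgeR adjusted p = 0.124 to 0.195). DESeq2 called these 4 genes and no other of the list, with adjusted p-values of 0.00781, 0.0206, 0.0402 and 0.024 in that order.

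Of 20 MAP kinases and ternary complex factors, which act upstream of the members, 0 passed in edgeR (1 higher and 2 lower at an unadjusted p under 0.05), with a median of -0.04. Mapk12, the p38 kinase typical of skeletal muscle, stood at 31.0 to 58.4 CPM in uninvolved and 6.73 to 14.1 CPM in lesional skin, a change of -2.00 ± 0.29 (edgeR adjusted p = 0.0597). The summed skeletal muscle markers given above were lower in the lesional biopsy of the same 5 mice, and their part in this value was not tested. Elk3, a ternary complex factor that acts at serum response elements, was 13.4 to 31.0 CPM in uninvolved and 32.3 to 76.96 CPM in lesional skin, a change of 1.07 ± 0.19 (adjusted p = 0.0694). Map2k3 and Map2k1 had changes of -0.56 ± 0.18 and 0.34 ± 0.17. DESeq2 called Mapk12 (adjusted p = 5.14e-08), Elk3 (2.46e-05) and Map2k3 (0.0337), and Mapk12 also passed in limma-voom (0.0488) and in edgeR with no filter on low counts (0.0411). Of 16 feedback inhibitors, 0 passed in edgeR (2 higher and 1 lower at an unadjusted p under 0.05), with a median of 0.31. The phosphatases Dusp10, Dusp1 and Dusp5 had changes of -0.80 ± 0.21, 0.84 ± 0.32 and 0.77 ± 0.33, and Spry4 0.86 ± 0.31 (edgeR adjusted p = 0.124 to 0.258), and DESeq2 called Dusp10 alone (adjusted p = 0.012).

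Genes known as AP-1 targets in skin and wounds had a median change of 2.26 log2 units, and 24 of 26 were positive. Of these, 2 rose and 0 fell in edgeR, beside 0.131% of all genes called, while DESeq2 called 19 higher and 1 lower, beside 12.6% of all genes. Ccl2, a monocyte attractant, rose by 2.38 ± 0.21 log2 units (SE, 5 mice; edgeR adjusted p = 0.0368), from 3.26 to 7.20 CPM in uninvolved to 6.11 to 75.3 CPM in lesional skin. Timp1, an inhibitor of metalloproteinases, rose by 3.39 ± 0.34 log2 units (adjusted p = 0.0438), from 3.67 to 8.09 CPM to 16.7 to 139 CPM. Both were higher in 5 of 5 mice, and both calls were lost without any of mice 2275, 2296, 2392 or 2465 (adjusted p = 0.0517 to 0.238). Tenascin C (Tnc) and the stromelysin Mmp3 had changes of 4.50 ± 0.58 and 2.32 ± 0.31 (edgeR adjusted p = 0.0597 each), and both passed in DESeq2 (adjusted p = 3.08e-19 and 3.95e-10) and in limma-voom (0.0447 and 0.0449). These genes have other inducers as well, and the list was chosen with earlier results of these data known, so it is no independent evidence on AP-1. Of the 10 heat shock genes 0 passed in edgeR (1 higher and 1 lower at an unadjusted p under 0.05), with a median of 0.03, and DESeq2 called Hspb1 alone (adjusted p = 0.0296). The smallest p-values in edgeR belonged to Hspb1 (-0.71 ± 0.24), Hspd1 (0.46 ± 0.18), Hsp90aa1 (0.47 ± 0.20) and Hsph1 (0.31 ± 0.18).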

How the data were processed

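Each of the 10 deposited tables lists, per the file headers, a count and an FPKM value for every gene symbol. The deposited count columns hold whole numbers with totals that differ between libraries and were treated as raw read counts. The FPKM columns, scaled by the authors to transcript length and library size, served to compare levels between genes. Cutadapt 1.6, TopHat2 2.0.12, HTSeq, Cufflinks 2.2.1 and mm10 are named in the submitters' processing notes. Annotation, strandedness and the treatment of multiply matching reads are not stated.

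Counts were fitted with edgeR 4.0.16 under R 4.3.3 (filterByExpr by group, TMM, robust quasi-likelihood F tests, Benjamini-Hochberg adjustment over all genes tested, threshold 0.05). The lesional fit used all 10 libraries, with a mouse block and a lesional term for each label, and the labels were compared separately in the 5 lesional and the 5 uninvolved libraries. The SE is the change divided by the square root of F. Values of log2 CPM for single mice carry a prior count of 2. The labels pair both biopsies of a mouse. Deviations of such pairs from their group means had correlations of -0.122 to 0.034 (-0.072 in both IL-17C+KO mice, where it is the same by construction). No library was left out, and the highest correlation between libraries was 0.986. Alternatives used DESeq2 1.42.0, limma 3.58.1, other scalings and filters, no block, and each mouse left out. The scripts were tested on simulated data. The members, gene lists and tests were chosen with earlier results of these data known. Named were all 10 members, the 4 genes of each list with the smallest p for the mean lesional change plus any called, and the 5 genes most like Fos, Fosl1 and Junb, except some genes under this rule that are not reported here. The promoter motifs were chosen after the sequences were seen. Positions are from GENCODE M21 (GRCm38, the assembly of mm10).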

Additional observations from a re-analysis of the deposited data

How the results depend on the processing

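Counts of genes with an adjusted p under 0.05 depended on the test. DESeq2 called 247 genes (edgeR 0) in IL-17C+ mice, 1157 (edgeR 2) in IL-17C+KO mice, 2033 (edgeR 21) for the mean of both labels, 6 (edgeR 0) for the difference of the lesional changes, and 213 and 11 (edgeR 0) between labels in lesional and uninvolved skin. With no filter on low counts edgeR called 5 genes in IL-17C+KO mice, 192 for the mean and 1 between labels in lesional skin. Limma-voom called 117 for the mean, and limma on log2(FPKM + 1) called 1 in IL-17C+KO mice. Without the replicate block (the mouse), edgeR called 966 for the mean and 0 in IL-17C+KO mice, and in the libraries of that label alone it called 0. Leaving out each mouse gave 0 to 11 in IL-17C+KO mice, 0 (without 2465) to 303 (without 2237) for the mean, and 0 to 241 (without 2275) between labels in uninvolved skin. Labels were compared over different mice, so no pairing applies there.

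Member signs turned in these cases, and the cause was not tested. Without the replicate block Atf3 was 0.68 in IL-17C+KO mice, 0.43 for the mean and 0.49 for the difference of changes. For the mean, Jund was 0.01 in DESeq2, 0.01 with RLE size factors and 0.13 on log2(FPKM + 1), where Atf3 was 0.07. In uninvolved skin the difference between labels was 0.01 for Jun and 0.19 for Egr1 on log2(FPKM + 1), and 0.07 and 0.27 in limma-voom.

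With each mouse left out in turn, the ranges that crossed 0 were as follows. In IL-17C+ mice Fosb ran from -0.29 to 1.65, Jund from -0.08 to 0.71 and Atf3 from -0.02 to 0.36. In IL-17C+KO mice, where 1 mouse then remains and is assumed to vary like the others, Fosb ran from -1.03 to 2.87, Fosl1 from -0.79 to 3.34, Jun from -0.25 to 1.63 and Atf3 from -2.10 to 1.46. For the mean, Fosb ran from -0.21 to 1.73, Jund from -0.24 to 0.16 and Atf3 from -0.98 to 0.80. For the difference of changes, Fos ran from -0.25 to 2.36, Fosb from -1.64 to 2.26, Fosl1 from -1.84 to 2.29, Fosl2 from -0.54 to 0.29, Jun from -0.87 to 1.01, Egr1 from -0.24 to 1.24 and Atf3 from -2.24 to 1.33. Between labels in lesional skin, Fos ran from -1.32 to 1.87, Fosb from -0.91 to 4.19, Jun from -1.14 to 1.26, Junb from -0.01 to 1.18, Jund from -0.14 to 0.44, Egr1 from -0.47 to 1.53 and Atf3 from -1.63 to 2.60. In uninvolved skin, Fos ran from -1.64 to 0.42, Fosl1 from -0.00 to 3.24, Jun from -0.33 to 0.45, Egr1 from -0.59 to 0.77 and Ier3 from -0.44 to 0.19.

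Fos, Junb and Ier3 stayed positive for the mean under each alternative run, but were smaller without mouse 2465 (1.11, 0.58 and 1.0) than without 2392 (2.42, 1.47 and 2.01). Jun and Egr1 were then 0.18 and 0.60, against 1.13 and 1.34. Fosl1, with 8 to 299 counts, has the least depth of the members.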
